A study of Mus musculus with 39 samples.

Results

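The 10 genes described here, of 24421 listed in the RNA-seq tables, are used in the mouse neocortex to recognise inhibitory interneurons: the GABA-synthesising enzymes Gad1 and Gad2, the calcium-binding protein Pvalb, the neuropeptides Sst, Vip and Npy, the secreted glycoprotein Reln, the transcription factor Lhx6, the RNA-binding protein Adarb2 and the receptor tyrosine kinase Erbb4. They were chosen by name and not by a measured value. Their nuclear RNA and the accessible chromatin over their bodies and start sites were compared between sfGFP+ nuclei isolated by FANS, in which fluorescent nuclei are sorted by flow cytometry, and by INTACT, in which tagged nuclei are captured on antibody-coated magnetic beads. The nuclei came from the neocortex of adult mice of both sexes that carried 1 transgenic copy of Arc-creERT2 (TG/WT) and, at the R26 locus, the CAG-Sun1-sfGFP-Myc reporter as M/M or M/WT, and that received tamoxifen before a social interaction test. All groups share these alleles and this treatment. How the sexes and the M/M and M/WT mice fell across the groups is not given in the sources used here. The Arc promoter drives the inducible Cre, and the nuclei are those of cells in which it was active while tamoxifen was present. The RNA-seq was made in 3 batches. Each batch was a distinct biological source, and the batches also differed in RNA integrity, which was higher in batch 1 than in the others, so that source, integrity and batch cannot be told apart. There were 4 libraries of each technique in batch 1, 7 of FANS and 4 of INTACT in batch 2, and 7 of FANS and 5 of INTACT in batch 3. The ATAC-seq held 3 libraries of each technique, which were technical replicates of 1 source.

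Inhibitory interneurons are the minority of cortical neurons that release GABA onto their neighbours. Most belong to a few classes set by their origin in the embryonic ganglionic eminences. Lhx6 marks the medial lineage, which gives the parvalbumin and somatostatin cells, whereas Adarb2 marks the caudal lineage, which gives the Vip cells and many of the Reln and Npy cells of the upper layers. Gad1 and Gad2 make GABA in all of them. Erbb4 is the neuregulin receptor that is enriched in interneurons.

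Depth on genes ran from 4205668 to 11028711 reads over the 31 RNA libraries. In batch 1 the INTACT libraries held 8621128 to 11028711 reads and the FANS libraries 4853222 to 6066757, whereas the ranges of the techniques overlapped in the other 2 batches. The share of reads outside gene features differed between techniques most in batch 1, at 71.3 to 72.7% in INTACT and 79.4 to 81.7% in FANS. It was 77.4 to 78.9% and 79.4 to 81.6% in batch 2, and 81.9 to 83.0% and 80.0 to 85.1% in batch 3. Levels below are normalised read counts, that is reads divided by a size factor for each library, and they are set side by side only within a batch.

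Per kilobase of exon, Lhx6 had the lowest mean level of the 10 genes in every batch and technique. Sst had the highest, except in the FANS libraries of batch 1, where Reln at 51.4 ± 5.65 (SD, n = 4) was above Sst at 37.1 ± 11.7, whereas in the INTACT libraries Sst stood at 103 ± 24.9 and Reln at 53.3 ± 5.44. Over both techniques of batch 1 the order of the mean normalised counts per kilobase was Sst at 70.1 ± 39.6 (SD, n = 8), Reln at 52.3 ± 5.24, Gad1 at 28.6 ± 5.81, Npy at 20.8 ± 16.2, Gad2 at 18.0 ± 1.41, Vip at 17.1 ± 11.4, Adarb2 at 13.4 ± 3.92, Erbb4 at 10.0 ± 1.35, Pvalb at 6.46 ± 2.79 and Lhx6 at 1.23 ± 1.26. Sst and Reln, and the neighbours from Gad1 down to Erbb4, differed by less than their spread. This pooled order is not that of either technique. Npy stood at 8.30 ± 7.67 in FANS and 33.3 ± 11.7 in INTACT (SD, n = 4 each), and Adarb2 at 16.3 ± 3.08 and 10.6 ± 2.03. In batch 2 Sst stood at 141 ± 46.1 (SD, n = 11) and Reln at 47.6 ± 6.02, followed by Npy at 41.0 ± 14.2 and Gad1 at 39.2 ± 5.51, which overlapped. In batch 3 Sst stood at 32.7 ± 10.6 (SD, n = 12), Reln at 25.4 ± 1.44, Gad1 at 18.3 ± 4.93 and Npy at 15.7 ± 5.50. Lhx6 was at 1.53 ± 0.791 in batch 2 and at 0.919 ± 0.697 in batch 3. For comparison, Slc17a7, the vesicular glutamate transporter of cortical excitatory neurons, stood at 716, 782 and 531 per kilobase in the 3 batches, and Camk2a, an excitatory neuron kinase, at 678, 644 and 559. Over all 13 excitatory genes of the list, the levels per kilobase ran from 50.7 over a median of 148 to 716 in batch 1, from 31.9 over 130 to 782 in batch 2 and from 41.0 over 119 to 559 in batch 3. In such bulk libraries, fewer nuclei of a type and less RNA per nucleus cannot be told apart.

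**Figure D1:**
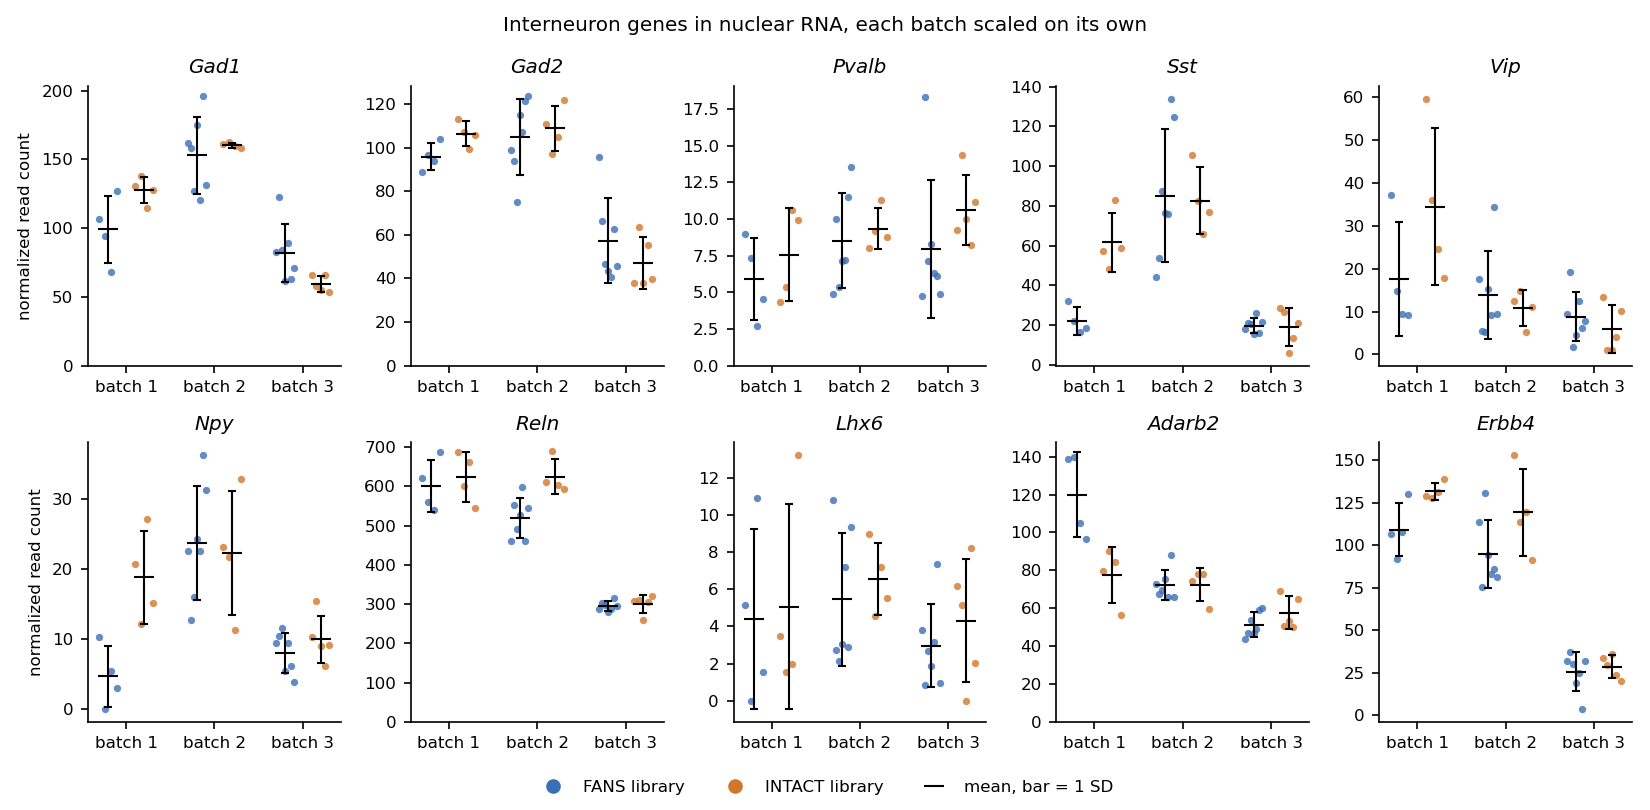
Normalised read count of each of the 10 interneuron genes in each of the 31 RNA libraries, by batch and technique, with 1 point a library, a line at the mean and bars of 1 SD. Each panel has its own axis. In batch 1 the 4 INTACT libraries lie above the 4 FANS libraries for Sst and Npy and below them for Adarb2.

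The question was whether the technique changes what is measured for these genes. In batch 1, 4 of the 9 members that could be tested were called, which required an adjusted p under 0.05 together with a 1.5-fold or larger change. Sst, Npy and Vip were higher in INTACT, which is 3 of 9 beside 4.03% of all 15114 genes tested, and Adarb2 was lower, beside 3.94% of all genes. In batch 2, 0 of the 10 members tested were called by limma, beside 0.128% of 14876 genes, and 2 had an unadjusted p under 0.05, Reln and Erbb4. In batch 3, 0 of 9 were called, beside 0.36% of 14440 genes, and 1 had an unadjusted p under 0.05, Gad1. The tests of edgeR and DESeq2 on whole reads also called 0 members in these 2 batches. With so few calls over all genes there, a count of 0 among 10 genes is near the background. The share of all genes with an unadjusted p under 0.05 was not taken, here or below. Lhx6 fell under the mean level of 5 needed for a test in batches 1 and 3.

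In batch 1 the 3 neuropeptide genes had the largest log2 fold changes of the members. Neuropeptides are packed into dense-core vesicles and released beside GABA. The promoters of the 3 peptide genes are shown here because these genes carried the increases in batch 1, and that of Adarb2 because it moved the other way, each as the 300 bases from 250 before to 50 after the start site in the RefSeq annotation of GRCm38.p6. The stretches are chr16:23890795-23891094 on the minus strand for Sst, and chr10:5638968-5639267 for Vip, chr6:49822460-49822759 for Npy and chr13:8202616-8202915 for Adarb2 on the plus strand. Capitals mark matches, on either strand, to 6 motifs searched, which were the cyclic AMP response element TGACGTCA and its shorter form TGACGT, which it contains, the AP-1 site TGANTCA, the homeodomain core TAATTA, the TATA box TATAAA and the GC box GGGCGG.
Sst promoter: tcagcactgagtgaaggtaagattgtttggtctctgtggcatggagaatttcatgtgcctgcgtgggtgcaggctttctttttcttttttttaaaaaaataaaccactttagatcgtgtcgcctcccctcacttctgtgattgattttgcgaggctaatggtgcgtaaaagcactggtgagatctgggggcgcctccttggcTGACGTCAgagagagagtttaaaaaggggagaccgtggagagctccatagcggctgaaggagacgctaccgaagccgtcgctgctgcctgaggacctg
Vip promoter: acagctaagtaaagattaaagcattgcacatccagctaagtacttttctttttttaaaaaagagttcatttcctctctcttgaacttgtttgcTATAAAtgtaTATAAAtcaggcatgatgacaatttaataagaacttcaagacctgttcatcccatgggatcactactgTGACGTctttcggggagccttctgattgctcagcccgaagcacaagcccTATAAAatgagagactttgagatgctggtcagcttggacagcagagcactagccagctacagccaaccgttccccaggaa
Npy promoter: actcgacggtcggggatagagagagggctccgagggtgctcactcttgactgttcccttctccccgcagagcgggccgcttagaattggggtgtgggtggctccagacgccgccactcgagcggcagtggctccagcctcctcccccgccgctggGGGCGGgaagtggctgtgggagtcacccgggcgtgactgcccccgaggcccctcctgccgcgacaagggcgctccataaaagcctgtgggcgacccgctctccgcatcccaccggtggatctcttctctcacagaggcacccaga
Adarb2 promoter: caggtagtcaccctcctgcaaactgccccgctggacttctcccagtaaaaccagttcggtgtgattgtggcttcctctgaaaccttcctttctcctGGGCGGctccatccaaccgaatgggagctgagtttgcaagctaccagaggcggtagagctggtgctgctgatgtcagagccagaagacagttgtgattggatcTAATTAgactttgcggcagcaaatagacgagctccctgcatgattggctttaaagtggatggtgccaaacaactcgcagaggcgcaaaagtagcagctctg
The Sst promoter held the full TGACGTCA, which started 48 bases before the start site and was found in 1.79% of the 32851 promoters of the annotation. Sst was the only member whose promoter held it. The Vip promoter held the shorter TGACGT 79 bases before the start site, a motif that 7.51% of promoters hold, and TATAAA at 3 places, a motif in 13.6% of promoters. The Npy promoter held GGGCGG, found in 35.7% of promoters, 95 bases before its start site. The Adarb2 promoter held GGGCGG 154 bases and TAATTA, found in 5.29% of promoters, 51 bases before its start site. The 4 promoters also differed in CpG content, with 24 CpG in Npy, 13 in Sst, 9 in Adarb2 and 4 in Vip, where the median promoter had 7. These matches describe letters, and no binding was measured.

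Sst encodes somatostatin, the inhibitory peptide of dendrite-targeting interneurons. In batch 1 its normalised counts were 32.2, 22.1, 16.4 and 18.3 in the FANS libraries and 57.1, 48.2, 83.0 and 58.8 in the INTACT libraries. Every INTACT library was above every FANS library, a separation that 17.1% of all genes showed in this direction. The means were 22.2 ± 7.03 (SD, n = 4) and 61.8 ± 14.9 (SD, n = 4), and the log2 fold change of INTACT over FANS was 1.45 (SE 0.223, adjusted p = 1.27e-05). In batch 2 the 7 FANS libraries ran from 44.2 over a median of 76.2 to 134, and the INTACT libraries read 106, 82.5, 65.9 and 77.0. All 4 INTACT values lay inside the FANS range, and the log2 fold change was 0.03 (adjusted p = 0.961). In batch 3 the FANS libraries ran from 15.7 over 20.5 to 26.2, and the INTACT libraries read 28.8, 26.7, 6.02, 13.3 and 21.3. INTACT libraries lay on both sides of the FANS range there, with a log2 fold change of -0.20 (adjusted p = 0.815).

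Npy encodes neuropeptide Y, made by several interneuron classes. Its normalised counts in batch 1 were 10.3, 0, 5.45 and 3.06 in FANS and 20.8, 12.2, 27.2 and 15.2 in INTACT. These values rest on 8, 0, 4 and 2 reads in FANS and on 24, 16, 41 and 23 reads in INTACT. All INTACT libraries were above all FANS libraries, with means of 18.9 ± 6.61 and 4.70 ± 4.34 (SD, n = 4 each) and a log2 fold change of 2.20 (SE 0.526, adjusted p = 0.00178) on the scale with 1 added to each count. The size depended on this choice and on the FANS library without a read, since the log2 fold change was 1.37 with 5 added and 1.52 without FANS replicate 2, and the call was kept in both. In batch 2 the FANS libraries ran from 12.7 over 22.6 to 36.4 and the INTACT libraries read 23.3, 21.8, 11.3 and 33.0, a log2 fold change of -0.10 (adjusted p = 0.899). In batch 3 the FANS libraries ran from 3.89 over 9.44 to 11.6, and the INTACT libraries read 10.3, 15.4, 9.03, 6.16 and 9.13, a log2 fold change of 0.30 (adjusted p = 0.733). The techniques overlapped in both of these batches.

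Vip encodes vasoactive intestinal peptide, the marker of interneurons that inhibit other interneurons. In batch 1 its normalised counts were 37.3, 14.7, 9.54 and 9.17 in FANS and 59.7, 36.0, 24.6 and 17.9 in INTACT. The techniques overlapped, since FANS replicate 1 was above 3 of the 4 INTACT libraries. The log2 fold change was 1.02 (SE 0.364, adjusted p = 0.0306), and the call was kept in only 3 of the 8 fits that left out a library. It was lost without FANS replicate 2, 3 or 4 (adjusted p = 0.0622, 0.0825 and 0.0828) and without INTACT replicate 1 or 2 (adjusted p = 0.170 and 0.0850), with no filter on low values (adjusted p = 0.0790) and by DESeq2 (adjusted p = 0.228). With a replicate block in limma it was kept (adjusted p = 0.0032). In batch 2 the FANS libraries ran from 5.35 over 9.33 to 34.5 and the INTACT libraries read 12.5, 14.9, 5.15 and 11.0. In batch 3 the FANS libraries ran from 1.79 over 7.77 to 19.2 and the INTACT libraries read 13.4, 1.03, 1.00, 4.11 and 10.2. The log2 fold changes there were -0.15 (adjusted p = 0.895) and -0.72 (adjusted p = 0.557), and the techniques overlapped.

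Adarb2 encodes a catalytically inactive relative of the adenosine-to-inosine RNA editing enzymes. Its normalised counts in batch 1 were 139, 140, 105 and 96.3 in FANS and 79.6, 90.3, 84.4 and 56.2 in INTACT. Every FANS library was above every INTACT library, as in 16.5% of all genes. The means were 120 ± 22.6 and 77.6 ± 14.9 (SD, n = 4 each), and the log2 fold change was -0.62 (SE 0.153, adjusted p = 0.00219). The change stood close to the 1.5-fold limit. It shrank to -0.55 when FANS replicate 1 was left out, to -0.55 when FANS replicate 2 was, and to -0.48 when INTACT replicate 4 was, each of which ended the call, as it did when values were scaled to the 75th percentile (-0.57). In batch 2 the FANS libraries ran from 65.9 over 69.5 to 88.0 and the INTACT libraries read 74.3, 77.9, 78.2 and 59.4. In batch 3 the FANS libraries ran from 43.5 over 49.3 to 60.3 and the INTACT libraries read 69.0, 50.4, 53.2, 50.3 and 65.0. The log2 fold changes were 0.00 (adjusted p = 0.990) and 0.16 (adjusted p = 0.668).

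The GABA enzymes changed less. Gad1 encodes the larger glutamate decarboxylase, which makes most cellular GABA. Its normalised counts in batch 1 were 107, 94.4, 68.1 and 127 in FANS and 131, 138, 115 and 128 in INTACT. The INTACT libraries stood high, but FANS replicate 4 lay among them. The log2 fold change of 0.40 (SE 0.144, adjusted p = 0.0335) was under 1.5-fold, and 36.1% of all genes had an adjusted p under 0.05 in this batch. Leaving out 1 library moved it between 0.23 (FANS replicate 3 left out, adjusted p = 0.158) and 0.53, with an adjusted p over 0.05 in 5 of 8 cases, as with no filter on low values (adjusted p = 0.0633). In batch 2 the FANS libraries ran from 120 over 158 to 196, around INTACT libraries at 161, 163, 160 and 158, with a log2 fold change of 0.09 (adjusted p = 0.757). In batch 3 the order turned, with FANS libraries from 61.7 over 82.3 to 123 and INTACT libraries at 65.9, 57.6, 55.2, 65.7 and 53.8. The log2 fold change there was -0.42 (SE 0.143, adjusted p = 0.144), with an overlap at the lower end of the FANS range.

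Gad2 encodes the smaller decarboxylase, which is held at synaptic terminals. Its batch means were 95.9 ± 6.32 in FANS and 106 ± 5.62 in INTACT in batch 1, 105 ± 17.3 and 109 ± 10.4 in batch 2, and 57.3 ± 19.6 and 47.0 ± 11.9 in batch 3. The log2 fold changes were 0.15 (adjusted p = 0.340), 0.06 (adjusted p = 0.849) and -0.25 (adjusted p = 0.593), and the techniques overlapped in each batch. Although the enzymes share a product, their levels were only weakly related over the 31 libraries. With each batch and technique centred, Pearson's r between Gad1 and Gad2 was 0.25 and Spearman's rho 0.20. Of 9611 genes, those most like Gad1 were Klf6 (r = 0.74), Spty2d1 (r = 0.74) and Mef2c (r = 0.73), and those most like Gad2 were Rangap1 (r = 0.72), P4ha1 (r = 0.66) and Cep85l (r = 0.65). These correlations are descriptions, and the values of a library share its size factor and depth.

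The remaining members passed the test in no batch. Reln encodes reelin, the secreted signal of Cajal-Retzius cells and of layer 1 interneurons. In batch 2 its FANS libraries ran from 459 over 526 to 597 and its INTACT libraries read 610, 691, 604 and 592. The INTACT libraries stood high, and the lowest lay just under the highest FANS library. The log2 fold change was 0.27 (SE 0.0712, adjusted p = 0.0561). In batches 1 and 3 it was 0.05 (adjusted p = 0.622) and 0.02 (adjusted p = 0.922). Erbb4 had log2 fold changes of 0.28 (SE 0.116, adjusted p = 0.0623), 0.32 (SE 0.141, adjusted p = 0.263) and 0.35 (SE 0.338, adjusted p = 0.710) in batches 1 to 3. Its value in batch 3 rested on FANS replicate 6, which read 3.69 from 3 reads while the other 6 FANS libraries ran upward from 19.3. Without that library the log2 fold change was -0.03.

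Pvalb encodes parvalbumin, the calcium buffer of fast-spiking basket cells. It was sparse, at 2.73 to 10.6 normalised counts per library in batch 1, 4.91 to 13.6 in batch 2 and 4.73 to 18.3 in batch 3. Its log2 fold changes were 0.33 (SE 0.448, adjusted p = 0.610), 0.18 (adjusted p = 0.836) and 0.47 (adjusted p = 0.542), with overlap throughout. Lhx6 was the scarcest, with means of 4.39 ± 4.84 in FANS and 5.05 ± 5.51 in INTACT in batch 1 and of 2.95 and 4.31 in batch 3. In batch 2, where it was tested, the log2 fold change was 0.39 (adjusted p = 0.711). In batch 1 Lhx6 was listed at 0 in 1 FANS library, and counts of a few reads a library leave large errors on both genes.

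**Figure D2:**
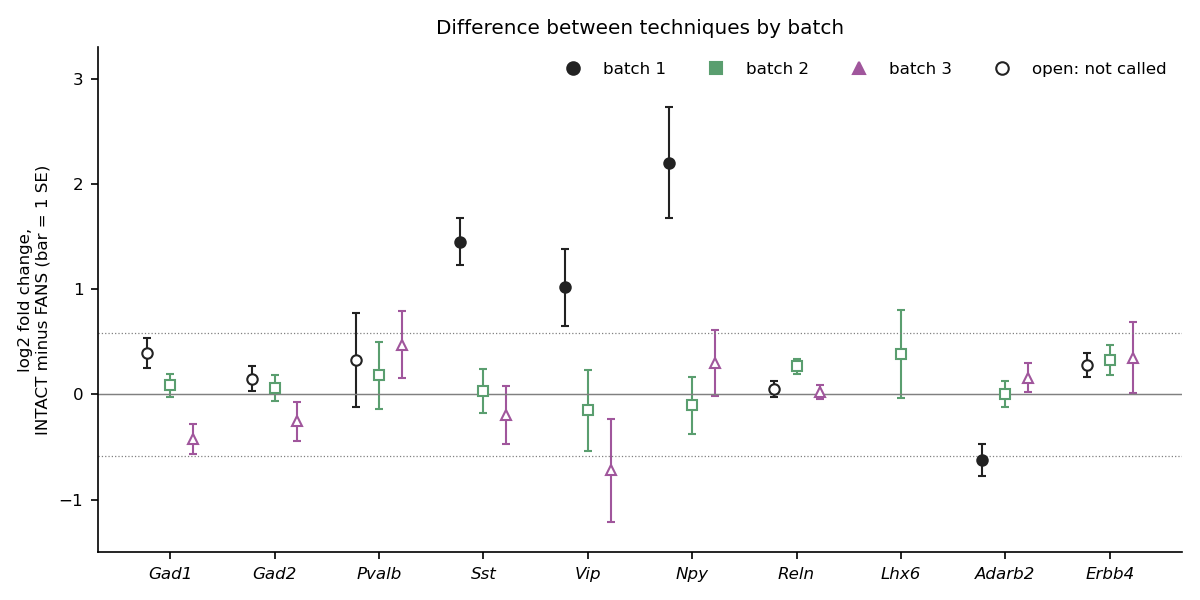
Log2 fold change of INTACT over FANS for each interneuron gene in each batch, with bars of 1 SE on either side, filled points for genes that were called and dotted lines at the 1.5-fold limit. Only batch 1 has filled points, for Sst at 1.45, Npy at 2.20, Vip at 1.02 and Adarb2 at -0.62, and Lhx6 has a point in batch 2 alone because it was too low for a test in the others.

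The difference between techniques itself differed between batches for some members. A test of this difference passed for 6.3% of 14332 genes between batches 1 and 2 and for 23.3% between batches 1 and 3. The log2 fold change of Sst in batch 1 exceeded that in batch 2 by 1.42 (SE 0.403, adjusted p = 0.0236) and that in batch 3 by 1.65 (SE 0.392, adjusted p = 0.0016). For Npy the excess was 2.30 (SE 0.584, adjusted p = 0.00986) and 1.90 (SE 0.567, adjusted p = 0.0115). Gad1 differed between batches 1 and 3 by 0.82 (SE 0.209, adjusted p = 0.00333), which spans the change of sign described above, and not detectably between batches 1 and 2 (0.31, adjusted p = 0.440). Adarb2 differed between batches 1 and 3 by -0.78 (SE 0.200, adjusted p = 0.00328) and between batches 1 and 2 by -0.63 (adjusted p = 0.0553). Vip differed by 1.17 (adjusted p = 0.378) and 1.74 (adjusted p = 0.0731), neither past the threshold. Between batches 2 and 3, 0 members passed the test of limma, beside 0% of all genes, and 2 had an unadjusted p under 0.05, Gad1 (0.51, unadjusted p = 0.0123) and Reln (0.24, unadjusted p = 0.0183).

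Other genes of the GABA system were also tested, in batch 1 beside 4.03% of all genes called higher and 3.94% lower. Of 4 genes that load, take up or break down GABA, 1 was higher in INTACT in batch 1. This was Slc32a1, the vesicular GABA transporter, at 20.8 ± 1.89 in FANS and 34.1 ± 3.83 in INTACT (log2 fold change 0.68, adjusted p = 0.0153), a call lost without INTACT replicate 2 (adjusted p = 0.0518) or 3 (adjusted p = 0.0531), whereas the most abundant of them, Aldh5a1, which ends GABA breakdown, changed by -0.17 (adjusted p = 0.0661). Of 11 transcription factor and lineage genes tested, 1 was lower. This was Dlx6os1, a long non-coding RNA of the Dlx5 and Dlx6 locus, at 73.8 ± 7.03 and 39.0 ± 1.54 (log2 fold change -0.90, adjusted p = 6.18e-05), whereas Satb1 changed by -0.02. Of 12 further subclass markers, 3 were higher and none lower. The neuropeptide precursor Cck rose from 460 ± 15.3 to 741 ± 12.5 (log2 fold change 0.69, adjusted p = 1.5e-09), and the opioid precursor Penk from 181 ± 23.2 to 323 ± 40.3 (0.83, adjusted p = 3.96e-07). Lamp5, a membrane protein of neurogliaform cells, rose from 483 ± 41.8 to 739 ± 43.5 (0.61, adjusted p = 9.12e-08), a change that went under 1.5-fold without FANS replicate 2 or 4 or INTACT replicate 1. Cnr1, a cannabinoid receptor and the most abundant subclass marker, had means of 1105 and 1191 (log2 fold change 0.11, adjusted p = 0.117), and was not called in batch 2 (0.14) or 3 (-0.10) either. Of 14 receptors and partners, the somatostatin receptors Sstr1 (0.80, adjusted p = 8.83e-05) and Sstr2 (0.64, adjusted p = 2.48e-05) were higher, and Sstr2 went under 1.5-fold without FANS replicate 3 (0.58). Vldlr, a reelin receptor and the most abundant of that list, changed by 0.37 (adjusted p = 2.49e-06), under 1.5-fold. Of the 14, 9 had an adjusted p under 0.05, beside 36.1% of all genes. The log2 fold changes of the 14 ran from -0.52 to 0.80, and 7 of them were above 0. Several of these genes, Cck, Penk and Lamp5 among them, are also expressed by excitatory neurons.

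In batch 2, 0 of 44 of these other interneuron and partner genes passed by limma or edgeR. Of them 11 had an unadjusted p under 0.05, a count that has no share of all genes beside it. In batch 3, 3 of 11 subclass markers were lower in INTACT and none higher, beside 0.346% of all genes lower. Kit, a receptor tyrosine kinase, fell from 145 ± 21.7 to 86.1 ± 12.0 (log2 fold change -0.75, adjusted p = 2.28e-04) with no overlap between techniques, a separation that 0.589% of all genes showed in this direction, Penk from 154 ± 46.2 to 93.6 ± 9.11 (-0.66, adjusted p = 0.0159) and the tachykinin precursor Tac1 from 21.5 ± 6.91 to 9.36 ± 4.08 (-1.16, adjusted p = 0.0211). The calls of Penk and Tac1 were not stable. Penk lost its call when FANS replicate 2, INTACT replicate 1 or INTACT replicate 5 was left out, and Tac1 when FANS replicate 1, FANS replicate 2 or any of INTACT replicates 1, 4 and 5 was, with adjusted p up to 0.0653 and 0.0830. Both also missed the threshold with no filter on low values (adjusted p = 0.0504 and 0.0673). Penk lay on opposite sides of FANS in batches 1 and 3, a difference that was not tested. The median log2 fold change of the members tested was 0.33 in batch 1, 0.08 in batch 2 and 0.02 in batch 3, beside medians of 0.01, -0.00 and -0.00 over all genes tested. In the same order of batches the medians were 0.37, -0.01 and -0.12 for the GABA handling genes, -0.06, 0.08 and -0.03 for the transcription factor and lineage genes, 0.19, 0.08 and -0.20 for the subclass markers, and -0.01, 0.01 and -0.08 for the receptors and partners.

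Some markers of other cells moved with technique in the same libraries. In batch 1, 4 of 7 astrocyte genes and 8 of 13 oligodendrocyte-lineage genes were higher in INTACT, with median log2 fold changes of 1.28 and 0.61. Their summed levels were 6231 to 6952 in FANS and 7691 to 7877 in INTACT for the astrocyte list, and 6333 to 7871 and 10155 to 10723 for the oligodendrocyte list. Slc1a2, a glutamate transporter that makes up most of the astrocyte sum, went from 6377 to 7347 (log2 fold change 0.21, under 1.5-fold), and Apoe, a lipid carrier, from 78.9 to 188. Mbp, a myelin protein, had means of 1603 and 1630 (log2 fold change 0.02, adjusted p = 0.785). Of 13 excitatory genes 0 were called at 1.5-fold, and 6 had an adjusted p under 0.05, beside 36.1% of all genes. The log2 fold changes ran from -0.37 to 0.54 over the list. By unadjusted p, 10 were under 0.05, with no share of all genes to set beside them. The list had summed levels of 12391 to 12515 in FANS and 11720 to 12242 in INTACT and a median of -0.11. Of the 4 microglial genes tested 1 was lower, P2ry12, from 73.8 to 35.5, and of the vascular list, which summed to at most 29.1 in any library of the batch, the 1 gene tested, Vtn, was higher, from 3.82 to 9.53. In batch 2 the oligodendrocyte list was also higher, with 4 of 12 genes called, as was 1 of 7 astrocyte genes, Slc1a3, while 0 of the 10 interneuron genes were. In batch 3, 0 of 34 genes of these lists were called by limma or edgeR. Of them 11 had an unadjusted p under 0.05, again without a share of all genes. The share of reads outside features and the astrocyte and oligodendrocyte lists thus moved with technique in batch 1 together with Sst, Npy, Vip and Adarb2, and their part in the result was not tested.

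**Figure D3:**
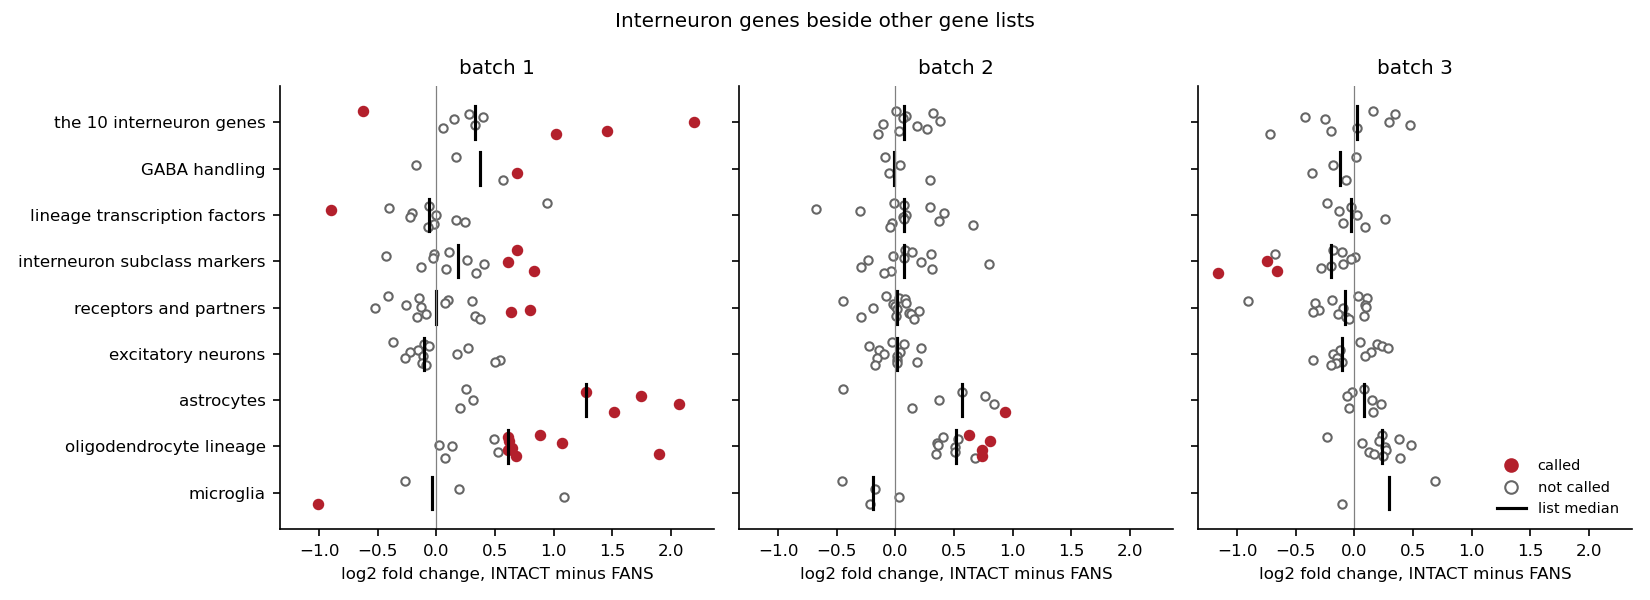
Log2 fold change of INTACT over FANS for every tested gene of each list but the vascular one, by batch, with 1 point a gene, a bar at the median and filled points for genes that were called. Astrocyte and oligodendrocyte genes lie above 0 in batch 1, at medians of 1.28 and 0.61, the excitatory genes lie on both sides of 0 with a median of -0.11, and 8 of the 9 interneuron genes tested lie above 0 there, with Adarb2 below.

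The ATAC-seq gave 99514 to 130088 peaks a library. Of these, 57, 67 and 66 peaks in the 3 FANS libraries and 77, 64 and 88 in the 3 INTACT libraries lay over the 10 genes or within 3 kb of their start sites, which is 0.0461 to 0.0520% and 0.0643 to 0.0710% of each list. Most lay in the 3 members of at least 400 kb, Reln, Adarb2 and Erbb4, with 46, 56 and 55 in FANS and 70, 61 and 81 in INTACT. The 7 shorter genes together had 11 peaks in each FANS library and 7, 3 and 7 in the INTACT libraries. The 2 sets thus ran in opposite directions. With 3 libraries against 3, the exact permutation test cannot give a p under 0.1, so that no difference between techniques in peaks can pass a threshold of 0.05. Peak heights are fold enrichments at the summit over the local background, as the peak caller gave them.

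The 10 genes divided by what lay at their start sites. A peak within 3 kb of a start site was present in all 6 libraries for 5 of 10, Npy, Reln, Lhx6, Adarb2 and Erbb4, beside 61.8% of all genes. The count was 3 when peaks needed a -log10 q-value of at least 5, since the Npy peaks of INTACT replicates 1 and 2 stood at 4.20 and 4.41, and those of Lhx6 at 4.96 and 4.82 in FANS replicates 2 and 3 and at 2.50, 2.14 and 4.53 in INTACT. Sst and Vip had no peak in any library, over the body or near the start site, as for 21.3% of genes. The nearest peak to the Sst start site lay 5.25 to 5.47 kb downstream in all 6 libraries, past the end of this short gene, with heights of 7.67, 7.86 and 9.21 in FANS and 10.4, 9.13 and 12.3 in INTACT. The nearest peak to the Vip start site lay 4.43 to 4.58 kb upstream in 5 libraries and 38.8 kb away in FANS replicate 2. Npy, the other peptide gene, had 1 peak in each library, at its start site.

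Among the 5 genes with a start site peak in every library, the heights at Npy were 5.35, 5.99 and 3.89 in FANS and 3.55, 3.69 and 3.98 in INTACT (exact permutation p = 0.2). At Reln they were 7.71, 6.75 and 7.25, all above the INTACT values of 5.86, 5.24 and 6.49 (exact permutation p = 0.1, the smallest possible). By height, 1 of the 5, Reln, was lower in every INTACT library, beside 54.2% of the 14288 genes with a start site peak in all 6 libraries. This count of members rose to 4 without INTACT replicate 3. Of the 5, 0 were higher in every INTACT library, beside 1.68% of the same 14288 genes. At Lhx6 the heights were 4.06, 3.56 and 3.60 against 3.06, 2.95 and 3.59, and at Erbb4 5.50, 4.65 and 5.44 against 4.04, 4.04 and 5.56. Adarb2 had the highest start site peak of the members, at 17.7, 17.8 and 16.1 in FANS and 16.7, 14.3 and 18.1 in INTACT (exact permutation p = 0.7). The difference of the mean log2 heights, INTACT minus FANS, was -0.42 for Npy, -0.31 for Reln, -0.23 for Lhx6, -0.21 for Erbb4 and -0.08 for Adarb2. The median over all genes with such peaks was -0.23. By percentile of height among all peaks of the same library, Npy stood at 18.9 to 45.1 in FANS and 10.6 to 17.9 in INTACT, and Lhx6 at 14.5 to 20.8 and 2.88 to 12.7, neither with overlap. On this scale 3 of the 5, Reln included, were lower in every INTACT library, beside 36.9% of all genes with such peaks. Start site peaks of Gad1 and Pvalb were found in the 3 FANS libraries and in no INTACT library, a pattern of 1.93% of all genes. At Pvalb they were 2 separate sites, counted from the nearest of its start sites. The site at -150 bases was in FANS replicates 1 and 2, and the site at 987 bases in FANS replicate 3. The Pvalb start site peaks were weak, with -log10 q-values of 4.33, 4.96 and 4.19.

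**Figure D4:**
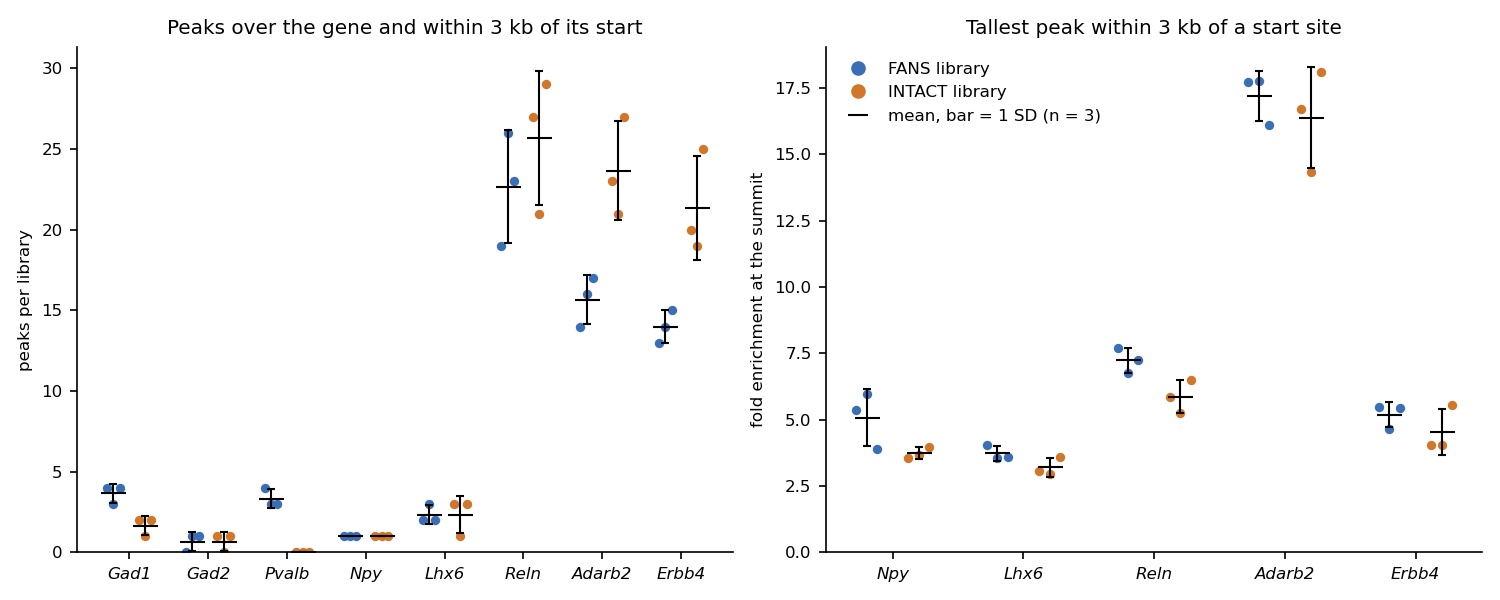
Number of peaks over each interneuron gene (left) and height of the highest peak within 3 kb of a start site as fold enrichment (right), with 1 point for each of the 3 FANS and 3 INTACT libraries. Lines mark means and bars 1 SD. INTACT libraries have more peaks over Adarb2 and Erbb4 and none over Pvalb. Sst and Vip have no peak and are not drawn, and the right panel holds the 5 genes with a start site peak in all 6 libraries.

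Single peak sites are shown that were picked by the libraries that held them. For Gad1 and Pvalb this was the highest site with a peak in every FANS and no INTACT library. For Reln and Erbb4 it was the highest with a peak in every INTACT and no FANS library. The Gad1 site found in all libraries was added. The sites are printed as the 200 bases around the merged summit read from GRCm38.p6 on the strand of the gene. The first is an upstream site at -882 bases from the Gad1 start site, chr2:70561147-70561346 (plus strand). The second lies in an intron of Gad1 30483 bases after the start at chr2:70592512-70592711 (plus strand). Next is an intronic site of Pvalb at chr15:78200886-78201085, 3251 bases after the nearest of the 2 Pvalb start sites. Intronic sites follow of Reln 59194 bases after its start at chr5:22285411-22285610, and of Erbb4 193107 bases after its start at chr1:68914852-68915051. The last 3 are on the minus strand. Capitals again mark motif matches on either strand.
Gad1 upstream site: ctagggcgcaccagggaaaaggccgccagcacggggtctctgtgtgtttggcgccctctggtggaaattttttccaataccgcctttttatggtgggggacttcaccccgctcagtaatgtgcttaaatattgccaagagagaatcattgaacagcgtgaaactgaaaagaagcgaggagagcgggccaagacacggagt
Gad1 intron site: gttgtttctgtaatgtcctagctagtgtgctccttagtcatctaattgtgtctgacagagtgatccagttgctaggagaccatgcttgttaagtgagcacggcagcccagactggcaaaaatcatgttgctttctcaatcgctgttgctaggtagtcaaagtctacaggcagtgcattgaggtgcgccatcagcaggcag
Pvalb intron site: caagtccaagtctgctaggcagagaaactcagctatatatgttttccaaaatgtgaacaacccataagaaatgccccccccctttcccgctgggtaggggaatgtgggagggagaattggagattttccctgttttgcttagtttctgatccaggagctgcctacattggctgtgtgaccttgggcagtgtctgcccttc
Reln intron site: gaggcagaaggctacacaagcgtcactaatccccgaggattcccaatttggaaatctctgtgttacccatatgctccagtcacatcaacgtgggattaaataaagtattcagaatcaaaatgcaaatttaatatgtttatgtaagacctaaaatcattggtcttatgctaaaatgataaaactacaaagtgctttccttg
Erbb4 intron site: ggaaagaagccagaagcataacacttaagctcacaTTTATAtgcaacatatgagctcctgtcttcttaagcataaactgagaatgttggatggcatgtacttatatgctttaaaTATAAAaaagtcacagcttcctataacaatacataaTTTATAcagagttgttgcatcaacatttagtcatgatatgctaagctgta
The Erbb4 site held TATAAA at 3 places, a motif in 11.3% of windows of this length around all 160863 merged peak regions, and the other 4 sites held none of the 6 motifs.

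The upstream Gad1 site had heights of 3.39, 2.99 and 3.80 in FANS and no peak in INTACT. These were weak peaks, with -log10 q-values of 3.90, 3.33 and 5.48, so that a stricter limit of 5 left 1 of them. The intronic Gad1 site had a peak in all libraries, at 11.3, 10.3 and 11.6 in FANS and at 7.38, 6.18 and 6.97 in INTACT. The median heights of all peaks were 6.54, 6.55 and 6.61 in these FANS libraries and 6.44, 6.45 and 6.55 in INTACT. Every INTACT height at this site was below every FANS height. Pvalb had 5 sites, all of them with peaks in FANS libraries only, and the one printed had heights of 5.19, 5.80 and 7.11. Pvalb had 4, 3 and 3 peaks in FANS and none in INTACT, which 1.88% of all genes showed. Gad1 had 4, 3 and 4 peaks in FANS and 2, 1 and 2 in INTACT. Fewer peaks in every INTACT library, as at both genes, were seen for 17.8% of all genes with a peak. The opposite held at the printed Reln site, with INTACT heights of 4.33, 3.22 and 3.59 and no FANS peak, and at the Erbb4 site, with INTACT heights of 8.15, 9.94 and 9.29 and no FANS peak. Which libraries held a peak at the printed sites was the rule that picked them, and is not a result.

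The long genes had more peaks in INTACT. Adarb2 had 14, 16 and 17 in FANS and 23, 21 and 27 in INTACT, and Erbb4 13, 14 and 15 in FANS and 20, 19 and 25 in INTACT (exact permutation p = 0.1 for each, the smallest possible). More peaks in every INTACT library were seen for 2.64% of all genes with a peak, but for 23.6% of the 318 genes of at least 400 kb, so that the pattern was common among long genes. Fewer peaks in every INTACT library were seen for 34.6% of these long genes. Reln, the third long member, had 19, 26 and 23 peaks in FANS and 27, 21 and 29 in INTACT, with overlap (exact permutation p = 0.4). Over all members, the peaks merged into 110 sites, of which 102 lay in introns, 4 in exons and 4 outside the gene. Of the 110 sites, 37 had peaks in INTACT libraries only, beside 11.7% of all merged regions, 12 in FANS libraries only, beside 17.9%, and 32 rested on a single library, beside 16.4%. Of the 37, 16 lay in Adarb2, 11 in Erbb4 and 10 in Reln. Of the 110 sites, 42 were found in all 6 libraries, beside 46.6% of all merged regions, 3 in every FANS and no INTACT library, beside 4.86%, and 2 in every INTACT and no FANS library, beside 1.36%. At the 42 shared sites, 13 were higher in every INTACT library, beside 8.66% of all such regions, and 3 were lower in every INTACT library, beside 33% of all such regions. The 13 sites lay in Adarb2 (5), Erbb4 (5) and Reln (3). Sites of 1 gene share their source and the libraries are technical replicates, so these shares are descriptions.

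**Figure D5:**
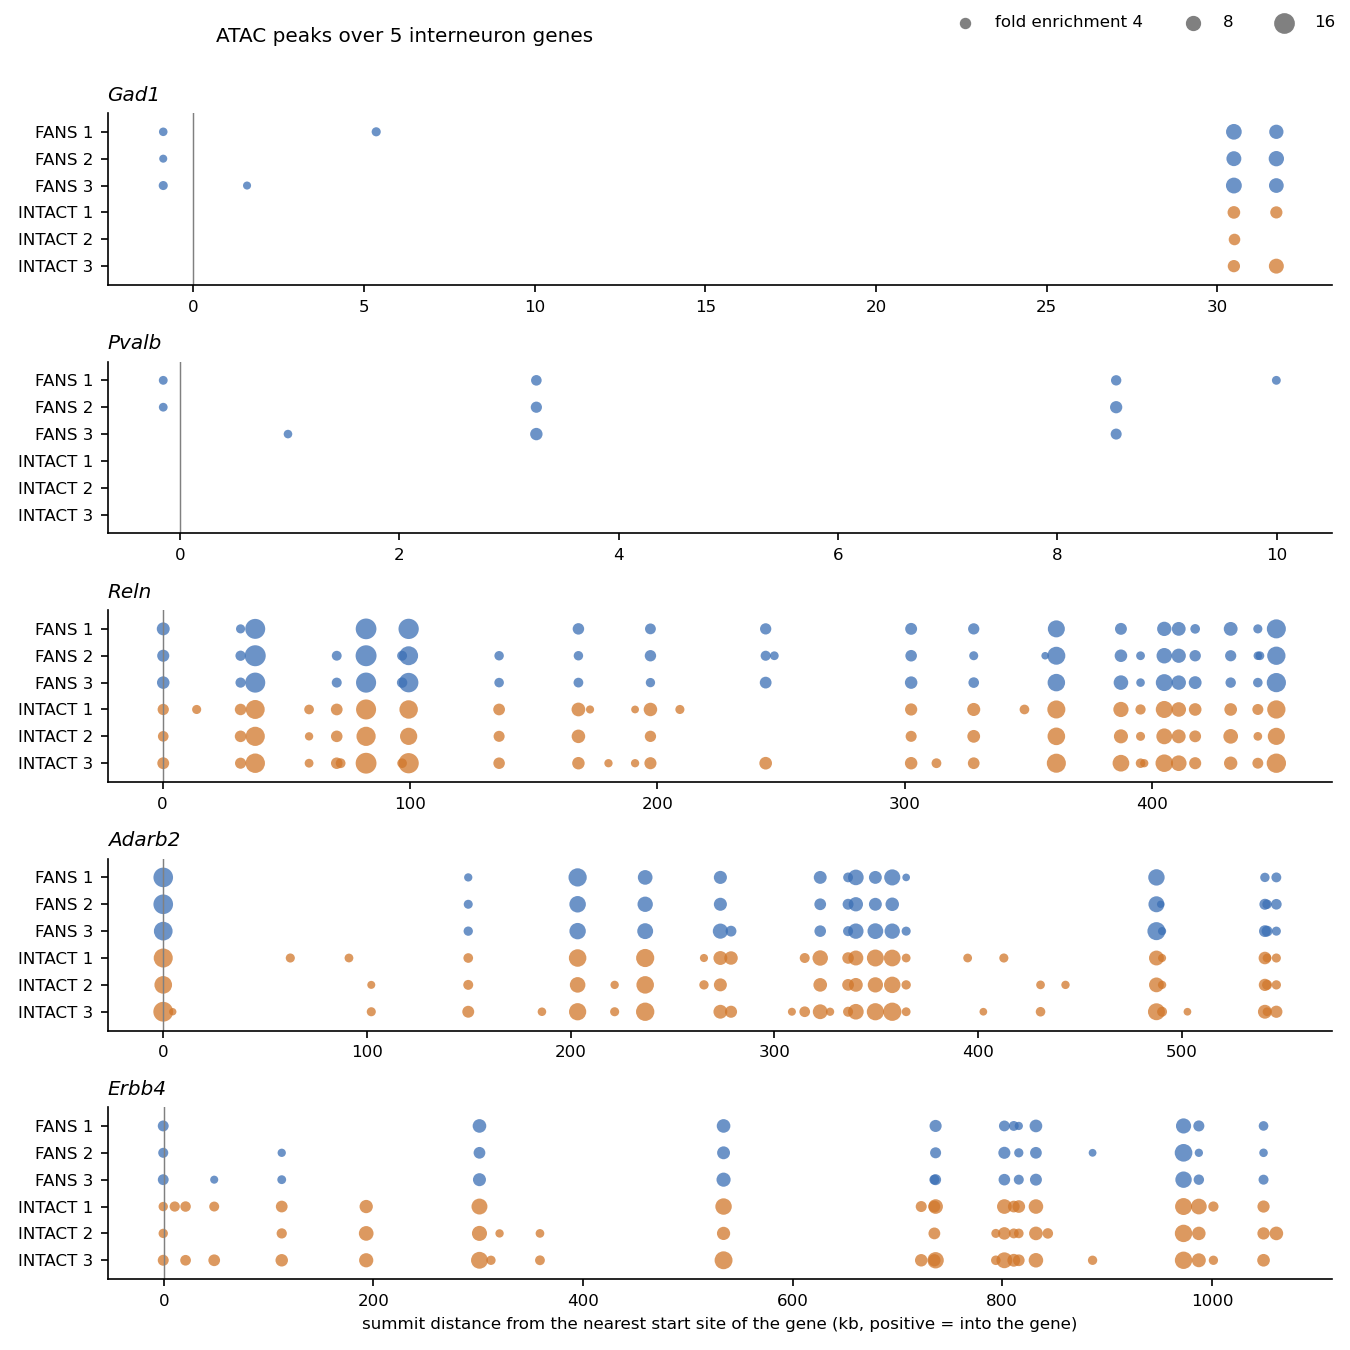
Peaks over Gad1, Pvalb, Reln, Adarb2 and Erbb4 in each of the 6 ATAC-seq libraries. The position is the distance of the summit from the nearest start site of the gene in kb, and marker size gives the height. Pvalb has marks in the FANS rows only, whereas the INTACT rows of Adarb2 and Erbb4 hold more marks than the FANS rows.

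The RNA and peak values of the same genes can be set side by side. Adarb2, lower in INTACT by RNA in batch 1, had more peaks in every INTACT library and a start site peak that overlapped between techniques. Sst and Vip, higher in INTACT by RNA in batch 1, had no called peak to compare. Npy, also higher in INTACT by RNA in batch 1, had a start site peak with a difference in mean log2 height of -0.42, with overlap between the techniques in height. Gad1 and Pvalb, which were not called by RNA, had fewer peaks in every INTACT library. The RNA log2 fold change of Gad1 was 0.40 in batch 1 (limma adjusted p = 0.0335, under 1.5-fold), 0.09 in batch 2 and -0.42 in batch 3. The RNA and ATAC libraries were made from separately collected nuclei, and no correlation was computed over so few genes.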

How the data were processed

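Nuclear RNA of 31 libraries and accessible chromatin of 6 libraries were taken as the authors deposited them. Per the study's methods, the authors mapped the RNA-seq reads to mm10 (STAR), collapsed duplicates sharing a molecular identifier, counted genes (HTSeq) and applied DESeq size factors, so that the deposited values are a signal per gene, reads divided by 1 size factor per library within a batch, with no use of gene length. Whether HTSeq used strand is not given in the sources used here. The low values, up to 20 reads, were whole multiples of the worth of 1 read within 0.1 read in 100% of cases, and whole reads were recovered from these steps. In INTACT replicate 3 of batch 3 a read was worth 1.003, so close to 1 that the step cannot be told from rounding there. The labels list 8 FANS and 5 INTACT libraries in batch 2, of which 7 and 4 were used, and the others were not analysed here. Nothing says that the libraries of a batch came from separate animals, so that p-values measure only the spread between libraries, which may be technical.

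For the ATAC-seq, the authors mapped reads to mm10 (Bowtie2), retained proper pairs, took out duplicates (Picard) and ran MACS2 on every library by itself. In the deposited lists each peak has a fold enrichment at its summit, a -log10 p-value, a -log10 q-value and a score (10 times the latter), all as the authors' caller wrote them. A shift of reads for the transposase is not given in the sources used here, and the depth of these libraries is unknown.

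Within a batch, techniques were compared by limma (3.58.1, R 4.3.3) with a trend, on log2(normalised count + 1), for genes whose mean reached 5. Calls required a Benjamini-Hochberg adjusted p under 0.05, over all genes tested, and a change of 1.5-fold or more. Fold changes of low genes depend on this scale. For Npy in batch 1 the log2 fold change was 2.20 here, 1.37 with 5 added and 1.99 by edgeR. Batches were compared with an interaction term over genes passing in all 3. Peaks were counted where at least 1 base overlapped a gene body or the 3 kb on either side of a start site in the RefSeq annotation of GRCm38.p6, the assembly of mm10, and library values were compared by two-sided exact permutation tests. Alternatives were pseudocount 5, no filter or a mean of at least 20, 75th percentile scaling, edgeR 4.0.16 and DESeq2 1.42.0 on whole reads, a replicate block, each library left out, -log10 q of at least 5, a 1 kb window and a peak overlap of at least 50%. The scripts were tested on simulated data.

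All 10 members were named. Of the other interneuron and partner lists, the genes that passed in any batch and the most abundant gene were named, of the other cell type lists at most 2 of the most abundant genes, and for Gad1 and Gad2 the 3 genes most alike. Slc1a3 was named after its values were seen. The values of 1 gene that these rules name are not reported here. The members and lists were chosen with earlier results of these data known.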

Additional observations from a re-analysis of the deposited data

Results flagged for a closer look

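In 60 groups of 4 to 7 libraries, 5 members had a library far from the others of its group, where chance gives about 1 group in 20. Adarb2 read 88.0 in FANS replicate 7 of batch 2, with the next library at 75.2. Vip read 34.5 (34.45) in the same library, with the next at 17.7. Pvalb read 18.3 in FANS replicate 2 of batch 3, with the next at 8.28. Lhx6 read 13.2 in INTACT replicate 4 of batch 1, from 20 reads, with the next at 3.46. Reln read 260 (259.77) in INTACT replicate 3 of batch 3, below the next library at 305.

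The effect of technique differed between batches for 4 genes by the interaction test of limma. The log2 fold change of INTACT over FANS in batch 1 exceeded that in batch 2 by 2.30 for Npy and 1.42 for Sst. Against batch 3 it was larger by 1.90 for Npy, 1.65 for Sst and 0.82 for Gad1, and for Adarb2 the difference was -0.78. Batch 1 is also the batch in which the share of reads outside gene features and the depth separated the techniques most, and in which RNA integrity was highest, and their part in these differences was not tested.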

How the results depend on the processing

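Of 477 values of a member in a batch under an alternative, 443 kept their direction and their side of the threshold, 11 kept the direction but lost the call and 23 reversed, 17 of these without a library. The calls of Sst and Npy in batch 1 held without any single library, with log2 fold changes of 1.30 to 1.64 and 1.52 to 2.68. At a mean of at least 20 Npy could not be tested. The members called in batch 1 ranged from 2 to 4 without a library, with 2 without FANS replicate 2. The reversals were of values near 0 or with large errors, none of them called. In batch 2, Adarb2 went from 0.00 to -0.0088 with 75th percentile scaling, and Sst from 0.03 to -0.042 with edgeR and to -0.043 with DESeq2. Without a library, the ranges in batch 2 were -0.013 to 0.12 for Gad2, -0.11 to 0.16 for Sst, -0.32 to 0.14 for Vip, -0.31 to 0.17 for Npy and -0.035 to 0.095 for Adarb2, and in batch 3 -0.38 to 0.14 for Sst and -0.034 to 0.47 for Erbb4. The difference of Erbb4 between batches became 0.022 (batches 1 and 2, 75th percentile scaling), 0.020 (batches 1 and 3, pseudocount 5) and 0.062 (batches 2 and 3, pseudocount 5). The cause was not tested.

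Libraries of the same replicate number did not deviate together over all genes tested, with correlations of -0.07 to 0.11 over 12 pairs. Such correlations gave no sign of pairing, but they cannot exclude it, since noise in each library also lowers them. With a replicate block, Vip and Npy in batch 2 became 0.58 and 0.59, Erbb4 in batch 3 became -0.0044, and the genes called over the whole table were 4 in batch 2 and 110 in batch 3, where the fit without it called 19 and 52. DESeq2 called 8 and 33, and the ranges without a library were 6 (without INTACT replicate 1) to 39 (without FANS replicate 5) and 32 to 72. Genes called of the other cell type lists in batch 2 were 5, with 3 under the block and 2 to 8 without a library. The GABA handling genes called in batch 1 were 1, with 0 without INTACT replicate 2 and 2 without FANS replicate 1 or 4 or with 75th percentile scaling, and the receptors and partners 2, with 1 without FANS replicate 3. Genes called of the other interneuron and partner lists in batch 3 were 3, with 1 to 3 without a library, the lowest without FANS replicate 2 or INTACT replicate 1 or 5.

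For the ATAC-seq, members with a start site peak in all 6 libraries were 5, with 3 at a -log10 q-value of at least 5. Members lower in every INTACT library were 1, with 1 to 4 without a library, 4 without INTACT replicate 3. The mean of peaks per library over the members was 13.0 higher in INTACT, with 7.17 (without INTACT replicate 3) to 19.2 without a library, and -5.33 without the 3 members of at least 400 kb, an alternative chosen after seeing the data. Depth limits Lhx6, Pvalb and Npy, which rest on few reads.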
